A study of Mus musculus with 18 samples.

Results

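NF-kappaB is a family of transcription factors, and the 10 genes described here are its 5 subunits and 5 genes of its regulators, in bone marrow-derived macrophages (BMDM) of dystrophic mice. The subunits are Nfkb1, Nfkb2, Rel, Rela and Relb, and the regulators, called inhibitors below, are the I-kappaB family members Nfkbia, Nfkbib, Nfkbie and Nfkbiz, and Tnfaip3. Of these, Nfkbiz also encodes an activating cofactor. The genes were taken by name, as 10 of the 55413 genes of the GENCODE vM21 annotation (mm10 build), of which 21938 are protein-coding. Every H3K27me3 and H3K27ac peak was then collected that touched a gene from 5 kb upstream of its body to 1 kb past its end, called the gene window below. H3K27ac is an acetylated histone mark of active promoters and enhancers, and H3K27me3 is a methylated mark, laid down by Polycomb complexes, that is associated with silent genes.

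The BMDM were grown from marrow of male mice of 3 genotypes with medium conditioned by L929 cells and were not stimulated. WT mice were of the C57BL6 strain by their labels. The mdx mice, labelled Dmdmdx-4Cv, carry a mutation in the dystrophin gene and model Duchenne muscular dystrophy. The mdxTLR4-/- mice, labelled mTLR4 and Bl6/Bl10, carry the mdx mutation and also lack Toll-like receptor 4 (TLR4), a receptor that signals to NF-kappaB. The methods of the study give a C57BL/6J background for WT, mdx and TLR4-/- mice, and state none for the mdxTLR4-/- mice themselves. By the labels, strain therefore cannot be told apart from the mdxTLR4-/- genotype. Each genotype had 2 ChIP and 2 input libraries for H3K27me3. The H3K27ac series was smaller, with WT and mdx each given 2 ChIP libraries, mdxTLR4-/- given 1, and 1 input. The labelled age of the mice behind the ChIP libraries was 12 to 13 weeks for WT, 14 to 15 weeks for mdx and 16 to 17 weeks for mdxTLR4-/- in H3K27me3, and 19 to 20, 21 to 22 and 23 weeks in H3K27ac. The labelled age therefore followed the genotype, and age and genotype cannot be told apart by the labels. However, the labelled ages rise by 1 week from library to library through the whole series, with inputs labelled younger than their own ChIP libraries, so they may not be the true ages. The chromatin was native and was digested with micrococcal nuclease.

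NF-kappaB works as a dimer of subunits that is held in the cytoplasm of a resting cell. Nfkb1 and Nfkb2 encode precursors that are cut into the DNA-binding subunits p50 and p52, while Rela, Rel and Relb encode the subunits that carry an activation domain. The I-kappaB proteins encoded by Nfkbia, Nfkbib and Nfkbie mask the dimers until a signal from TLR4 or another receptor leads to their degradation. The dimers then bind kappaB sites in the promoters of inflammatory genes. In macrophages the same dimers bind near several of their own genes and those of their inhibitors, which closes a negative feedback loop.

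For each gene found with a kappaB sequence in a promoter, a promoter is shown here, because the H3K27ac peaks below differ in whether they lie over it. RefSeq promoters (build GRCm38.p6), running from 250 bases before to 50 bases past a start, were found for 7 of the 10 genes, and Nfkb1, Relb and Nfkbiz had no entry. The 7 genes had 10 promoters, of which 7, in 5 genes, held a match to the kappaB consensus on either strand, with overlapping matches joined and given in capitals. Across all 32851 promoters of this length, 8.46% held a match. A match is a description of the letters, and binding was not measured. Each promoter is written in the direction of its gene.
Nfkb2, chr19:46304487-46304786, plus strand: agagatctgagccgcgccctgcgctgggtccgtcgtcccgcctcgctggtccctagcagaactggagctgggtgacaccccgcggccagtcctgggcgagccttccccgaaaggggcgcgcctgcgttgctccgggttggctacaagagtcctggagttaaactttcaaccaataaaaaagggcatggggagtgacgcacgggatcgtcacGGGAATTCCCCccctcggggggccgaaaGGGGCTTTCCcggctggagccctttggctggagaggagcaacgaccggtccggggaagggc
Rel, chr11:23770920-23771219, minus strand: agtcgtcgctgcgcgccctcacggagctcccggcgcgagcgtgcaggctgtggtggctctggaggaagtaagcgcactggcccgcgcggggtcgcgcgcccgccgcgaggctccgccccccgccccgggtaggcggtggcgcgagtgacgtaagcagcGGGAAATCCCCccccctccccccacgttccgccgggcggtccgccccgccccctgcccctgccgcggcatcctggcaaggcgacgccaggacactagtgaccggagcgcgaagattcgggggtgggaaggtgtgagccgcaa
Nfkbia, chr12:55492598-55492897, minus strand: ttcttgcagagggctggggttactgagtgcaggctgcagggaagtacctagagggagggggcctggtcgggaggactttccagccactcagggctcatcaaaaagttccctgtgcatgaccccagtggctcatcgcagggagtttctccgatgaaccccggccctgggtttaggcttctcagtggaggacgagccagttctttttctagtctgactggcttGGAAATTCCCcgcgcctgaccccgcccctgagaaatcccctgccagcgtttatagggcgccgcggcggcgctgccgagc
Nfkbie, chr17:45555450-45555749, plus strand: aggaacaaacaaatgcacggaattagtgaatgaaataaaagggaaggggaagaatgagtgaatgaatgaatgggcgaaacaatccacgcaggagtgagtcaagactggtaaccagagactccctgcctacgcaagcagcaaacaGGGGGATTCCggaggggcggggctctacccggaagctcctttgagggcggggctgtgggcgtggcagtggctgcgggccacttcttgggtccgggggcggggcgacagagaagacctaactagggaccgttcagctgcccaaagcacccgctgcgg
Tnfaip3, chr10:19015361-19015660, minus strand: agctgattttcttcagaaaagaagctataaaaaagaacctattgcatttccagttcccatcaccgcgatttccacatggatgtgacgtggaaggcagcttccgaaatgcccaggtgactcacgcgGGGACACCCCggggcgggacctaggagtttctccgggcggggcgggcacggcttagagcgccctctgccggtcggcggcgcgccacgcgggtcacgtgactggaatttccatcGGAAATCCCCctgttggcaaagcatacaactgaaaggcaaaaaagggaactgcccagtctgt

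Distances in this paragraph are from the RefSeq start of each promoter, while peaks over the start below refer to the GENCODE start of the gene. For Nfkb2 these are chr19:46304737 and chr19:46304320, so the promoter shown lies past the GENCODE start. For Tnfaip3 they are chr10:19015410 and chr10:19015657. The Nfkb2 promoter held GGGAATTCCCC from 39 bases before the start and GGGGCTTTCC from 11 bases before it. The Rel promoter held GGGAAATCCCC from 92 bases before the start, and the Nfkbia promoter held GGAAATTCCC from 29 bases before it. In Nfkbie the match GGGGGATTCC began 106 bases before the start. Tnfaip3 had GGGACACCCC at 125 bases and GGAAATCCCC at 12 bases before the start. The promoters matched for Rela and Nfkbib held no match in these windows. The GC box (GGGCGG, either strand) was found in 7 of the 10 promoters, beside 35.7% of all promoters. The TATA box (TATAAA, either strand) was found in 2 of the 10, beside 13.6%, and the PU.1 core (GAGGAA, either strand) in 1 of the 10, beside 28.3%. Of the 10 promoters 3 belong to Nfkb2, and the windows of 2 of these overlap. Those 2 are not shown, and held GGAATGTCCC and, where they overlap, GGGACTTTCC. Both of these stretches are among the 9 counted below. A second promoter of Tnfaip3, also not shown, held no match.

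Replicates were merged by the authors before peaks were called, so each genotype had 1 list per mark, without a spread between mice and without a test between genotypes. The value of a peak is its count of ChIP reads, not scaled and with no input subtracted. The 3 H3K27ac lists held 12076 to 15665 peaks with 168487 to 274020 reads, the median peak held 8 to 10 reads and the smallest 5, so a peak near this floor can be missed by counting error alone. The 3 H3K27me3 lists held 28143 to 41780 peaks with 7358418 to 10199918 reads. Library depth is unknown. All intervals are exact 95% intervals of read counts that cover counting error only. H3K27ac lay over the start of 8, 7 and 7 of 10 macrophage marker genes in WT, mdx and mdxTLR4-/- BMDM, and over 0 of 5 T cell, 0 of 4 B cell, 0 of 5 neutrophil, 0 of 4 fibroblast and 0 of 4 muscle markers in each list. Csf1r and Fcgr3 were the macrophage markers with no such peak in any list, and Fcgr3 had H3K27me3 over its start in all 3. Tlr4 itself had a H3K27ac peak over its start in all 3 lists, mdxTLR4-/- included, with 52, 29 and 43 reads in its window, so these lists do not check the TLR4 label.

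Among the subunits, H3K27ac marked the starts of Nfkb1, Nfkb2, Rel and Rela in all 3 genotypes, and that of Relb in mdx and mdxTLR4-/- BMDM. Rel encodes c-Rel, a subunit that is prominent in blood cells, and lies at chr11:23736847-23770970 on the minus strand (ENSMUSG00000020275.9). Its peak held 68 reads over 4.2 kb in WT and 46 over 5.0 kb in mdx, and 31 over 2.2 kb in mdxTLR4-/- BMDM. These are densities of 16.2, 9.2 and 14.1 reads per kb. By density mdx was the lowest, and by reads mdxTLR4-/- was, where the peak was the shortest. The counting intervals of the mdx density (6.74 to 12.3) and the mdxTLR4-/- density (9.57 to 20.0) overlapped. Every one of these peaks covered all 300 bases of the promoter shown above, the kappaB stretch included.

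Nfkb2 (chr19:46304320-46312385, plus strand, ENSMUSG00000025225.15), the gene of the noncanonical pathway, had 58 reads over its start in WT at 16.1 reads per kb. In mdx BMDM the peak over the start held 33 reads at 10.3 reads per kb. In mdxTLR4-/- BMDM 27 reads lay over the start in a short peak of 1.6 kb, at 16.9 reads per kb, and a second peak upstream of it held 7 reads. All 3 peaks over the start covered the promoter shown. Rela (chr19:5637483-5648130, plus strand, ENSMUSG00000024927.8) encodes p65, the main activating subunit. Its start peak held 33 reads in WT and 23 in mdx, and 22 in mdxTLR4-/- BMDM, at 20.6, 12.8 and 12.2 reads per kb. The WT value was the highest density of a member in the WT list. In mdxTLR4-/- BMDM alone, a further peak of 6 reads lay past the 3′ end of Rela.

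Nfkb1 (chr3:135584655-135691547, minus strand, ENSMUSG00000028163.17) is the longest of the 10 genes, at 107 kb. Its start peak held 24 reads over 4.0 kb in WT and 28 over 8.2 kb in mdx, and 13 over 3.4 kb in mdxTLR4-/- BMDM. The mdx peak held the most reads and had the lowest density, 3.41 reads per kb beside 6.0 in WT and 3.82 in mdxTLR4-/-, and it ran 6.35 kb into the gene, against 2.35 and 1.95 kb. Relb (chr7:19606217-19629438, minus strand, ENSMUSG00000002983.17), the partner of p52, had no H3K27ac peak in its window in WT BMDM, where the nearest peak was 24.4 kb from the start. A peak of 7 reads over 1.0 kb lay over its start in mdx and one of 6 reads over 1.2 kb in mdxTLR4-/- BMDM. Of the 2234 listed WT peaks of 1000 to 1200 bp, the smallest held 6 reads and the median 9, so the Relb peaks lie next to the smallest that the WT list could hold.

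Among the inhibitors the edges of the H3K27ac peaks differed between the lists. Nfkbia (chr12:55489410-55492647, minus strand, ENSMUSG00000021025.8) encodes I-kappaB-alpha, which masks the dimers and is itself a kappaB target. In WT BMDM it had a peak of 49 reads over 2.6 kb at the start and another of 13 reads over 2.2 kb at the 3′ end, 62 reads in all. In mdx BMDM a single peak of 37 reads over 5.0 kb covered start and body, and in mdxTLR4-/- BMDM a single peak of 37 reads covered 5.2 kb. Read density over the window was 12.9 reads per kb in WT and 7.4 in mdx, and 7.12 in mdxTLR4-/- BMDM. The kappaB stretch of its promoter was under H3K27ac in all 3 lists.

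Tnfaip3 (chr10:19000910-19015657, minus strand, ENSMUSG00000019850.11) encodes A20, an enzyme that edits ubiquitin chains and shuts off signalling upstream of NF-kappaB. In WT BMDM it had a peak of 10 reads inside the gene, 0.457 kb short of the annotated start, and one of 12 reads that began 5657 bp into the gene. A single peak lay over the start in mdx BMDM, with 18 reads over 4.6 kb, and in mdxTLR4-/- BMDM, with 10 reads over 3.0 kb. The promoter shown, which holds 2 kappaB stretches, had 0 of its 300 bases under H3K27ac in WT and all 300 in both mdx and mdxTLR4-/- BMDM. The WT peak nearest the start thus held as many reads as the mdxTLR4-/- one and differed in its edges. It was also denser, at 10.0 reads per kb over 1.0 kb against 3.33 over 3.0 kb.

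Nfkbie (chr17:45555703-45563169, plus strand, ENSMUSG00000023947.8) encodes I-kappaB-epsilon. In WT BMDM its nearest peak, of 7 reads, began 0.698 kb past the start, and a second peak of 8 reads at the 3′ end also covered the start of the neighbouring gene Slc35b2. A peak of 10 reads lay over the start in mdx and one of 13 reads in mdxTLR4-/- BMDM, where a second peak of 5 reads lay past the 3′ end. Of the 300 promoter bases, 0 were under H3K27ac in WT and 149 in mdx, and 300 in mdxTLR4-/- BMDM. The kappaB stretch lay wholly under a peak in mdxTLR4-/- alone, with 3 of its 10 bases under the mdx peak. Counted over the 9 separate kappaB stretches of the matched promoters, 6 lay wholly under H3K27ac in WT and 8 in mdx, and 9 in mdxTLR4-/- BMDM. All of the difference came from the peak edges at Nfkbie and Tnfaip3. The share of kappaB matches under H3K27ac over all promoters is not given here, so these counts stand without a background.

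Nfkbib (chr7:28758251-28767512, minus strand, ENSMUSG00000030595.15) encodes I-kappaB-beta. Its peaks held 26 reads in WT and 17 in mdx, and 11 in mdxTLR4-/- BMDM, at 9.29, 7.73 and 6.11 reads per kb, and lay inside the gene, 0.112, 0.512 and 0.912 kb from the outermost start. A RefSeq start of the gene lies further in, and its promoter was fully under the WT and mdx peaks and had 6 of 300 bases under the mdxTLR4-/- peak. The start of the neighbouring gene Sirt2 was under the WT and mdx peaks, and reads cannot be divided between the 2 genes. Nfkbiz (chr16:55811375-55838899, minus strand, ENSMUSG00000035356.17) encodes I-kappaB-zeta, a nuclear cofactor that switches on secondary response genes. It had 2 peaks in every list. The start peak held 15, 12 and 11 reads in WT, mdx and mdxTLR4-/- BMDM, and an internal peak, which began 15299 to 16299 bp past the start, held 27, 26 and 31 reads. The internal peak held more reads than the start peak in all 3 lists and covered 1 further annotated transcript start of Nfkbiz.

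**Figure D1:**
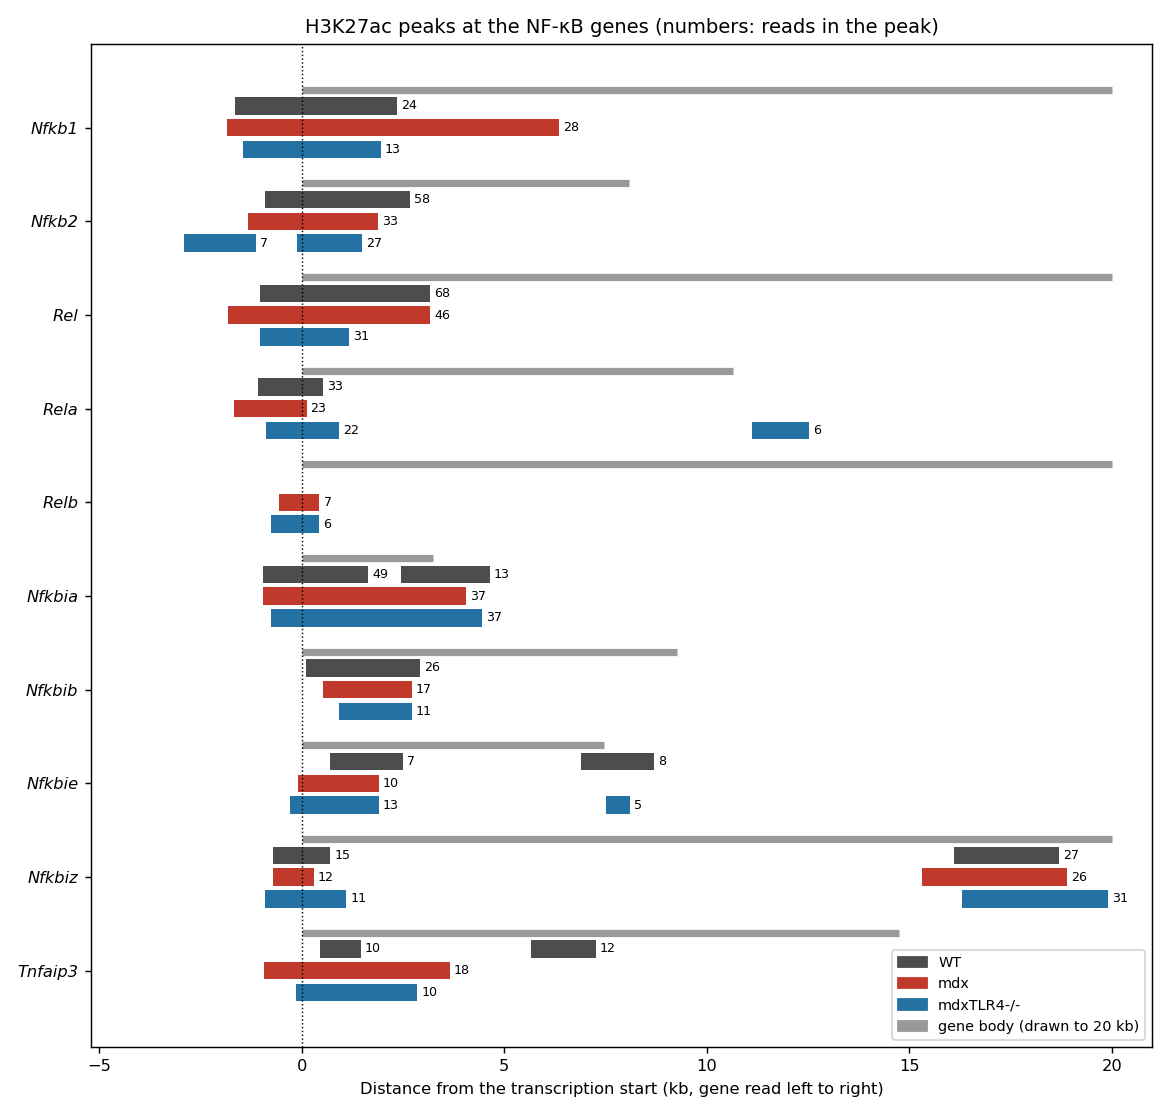
Position of each H3K27ac peak in the windows of the 10 genes, as distance in kb from the transcription start (dotted line), with each gene read from left to right; each bar is a peak of WT (grey), mdx (red) or mdxTLR4-/- (blue) BMDM, the number beside it is its count of reads, and the thin light grey bar is the gene body, drawn to 20 kb. Peaks of Relb, Nfkbie and Tnfaip3 reach the start in mdx and mdxTLR4-/- and not in WT, and Nfkbiz has an internal peak in all 3 lists.

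Counted over the family, 38 H3K27ac peaks touched the 10 windows, 13 in WT and 11 in mdx, and 14 in mdxTLR4-/- BMDM. A peak lay over the start of 6 of 10 genes in WT and 9 of 10 in mdx, and 9 of 10 in mdxTLR4-/- BMDM. The same held for 24.0%, 20.6% and 20.9% of all protein-coding genes. Within 1 kb of the start a peak was found for 9, 10 and 10 of the 10 genes, beside 27.9%, 23.8% and 25.7% of all genes. Relb, Nfkbie and Tnfaip3 had a peak over the start in mdx and mdxTLR4-/- and not in WT BMDM, a pattern that 1.58% of protein-coding genes had. When a peak within 1 kb was enough, Relb alone kept that pattern, which 1.40% of genes had. When any annotated transcript start of the gene counted, 8, 10 and 10 members had a peak, beside 27.7%, 23.9% and 25.0% of all genes. With 10 reads or more required, 6, 8 and 8 members had one over the start, beside 19.3%, 15.8% and 13.4%. The genes Nfkb1, Nfkb2, Rel, Rela, Nfkbia and Nfkbiz were marked over the start in every list. The summed reads of the 10 genes were 350 in WT and 257 in mdx, and 230 in mdxTLR4-/- BMDM, which was 0.128%, 0.134% and 0.137% of all reads in H3K27ac peaks.

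In WT BMDM the densest members ranked high among all genes with a H3K27ac peak in their window. Rela stood at percentile 95.8 of these genes by reads per kb, Rel at 90.9, Nfkb2 at 90.8 and Nfkbia at 82.8. In mdx BMDM the same genes stood at 84.3, 66.7, 74.3 and 50.4, and in mdxTLR4-/- BMDM at 66.5, 91.2, 73.3 and 51.1. The mdxTLR4-/- ranks of Nfkb2 and Rela include their thin second peaks. By the density of the start peak alone, among genes with a peak over the start, Nfkb2 stood at 88.7 in WT and 94.0 in mdxTLR4-/-, and Rela at 95.5 and 82.6. Nfkb1 stood low in each list, at 28.8, 5.65 and 8.79. The order of the WT densities ran from Rela, Rel and Nfkb2 through Nfkbia, Nfkbiz, Nfkbib and Tnfaip3 to Nfkb1 and Nfkbie, and the counting intervals of neighbours in this order overlapped, as the plot of reads per kb shows. Nfkbie stood at percentile 9.48 in WT, and its rank was above that in mdx (19.0) and mdxTLR4-/- (42.9) BMDM.

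**Figure D2:**
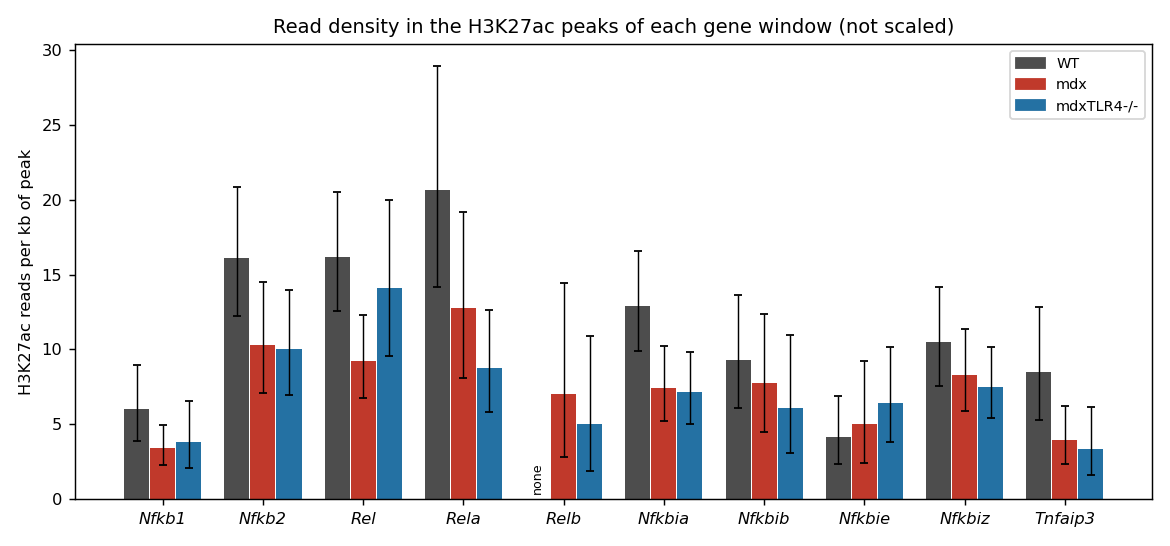
H3K27ac reads per kb of peak in each gene window, not scaled, for WT (grey), mdx (red) and mdxTLR4-/- (blue) BMDM; bars are the density of all peaks of a gene in a list and whiskers its exact 95% Poisson interval, which covers counting error only. Rela, Rel and Nfkb2 have the highest WT bars, from 16.1 to 20.6 reads per kb, and Relb has no WT peak.

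Read density was compared with WT in the 9 genes with a peak in both lists, Relb being left out. Both ratios share the WT list. In mdx BMDM the density ratio was below 1 for 8 of 9 genes, with a median of 0.620. Over the 6564 protein-coding genes with a peak in both lists, 60.1% of ratios were below 1 and the median was 0.891. A gene was called when its ratio was past 1.5 times in either direction and the interval left out 1. By this rule 4 genes were called lower in mdx, namely Rel at 0.568 (0.382 to 0.838), Nfkb2 at 0.640 (0.404 to 0.998), Nfkbia at 0.573 (0.371 to 0.875) and Tnfaip3 at 0.462 (0.234 to 0.903), and 0 were called higher. Among all these genes 11.6% were called lower and 4.65% higher. Nfkb1 at 0.569 (0.318 to 1.03) and Rela at 0.620 (0.347 to 1.09) had ratios of the same size with intervals that held 1. Nfkbie was the exception with 1.20 (0.482 to 2.86).

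In mdxTLR4-/- BMDM, where the list rests on 1 library, 8 of 9 ratios were below 1, with a median of 0.637. Over 6868 genes 62.0% were below 1 and the median was 0.871. The 4 genes called lower were Nfkb2 at 0.621 (0.394 to 0.964), Rela at 0.424 (0.247 to 0.724), Nfkbia at 0.551 (0.356 to 0.841) and Tnfaip3 at 0.394 (0.167 to 0.867), and 0 were called higher. The background was 12.0% lower and 3.26% higher. Rel had a ratio of 0.870 (0.550 to 1.35) and Nfkbie of 1.54 (0.734 to 3.29). The Rela call rested on the thin peak past its 3′ end, since the start peak alone gave 0.593 (0.329 to 1.05). For Nfkb2 the start peak alone gave 1.05 (0.638 to 1.68), and the low ratio came with the upstream peak of 7 reads.

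These ratios divide reads over peaks that were called separately in each list and differ in length, so a call is one of density within peaks. In Tnfaip3 the mdx call set 18 reads over 4.6 kb against 22 over 2.6 kb, and the ratio of reads was 0.818 (0.414 to 1.60). In Rela the ratio of reads in mdxTLR4-/- BMDM was 0.848 (0.494 to 1.45). The intervals of the reads ratio left out 1 for Rel at 0.676 (0.455 to 0.998), Nfkb2 at 0.569 (0.359 to 0.887) and Nfkbia at 0.597 (0.386 to 0.911) in mdx BMDM. In mdxTLR4-/- BMDM they left out 1 for Rel at 0.456 (0.288 to 0.707) and Nfkb2 at 0.586 (0.372 to 0.910). The same held there for Nfkbia at 0.597 (0.386 to 0.911) and Nfkbib at 0.423 (0.189 to 0.886). These reads ratios are not scaled, and the WT list held 1.43 and 1.63 times the reads in peaks of the mdx and mdxTLR4-/- lists. The share of all genes with such an interval is not given here, so they are not read as a result about the members.

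The calls also depended on the scale. When the lists were scaled to the same number of reads in peaks, the member median was 0.886 in mdx, with 0 calls, and 1.04 in mdxTLR4-/- BMDM, with 0 lower and Nfkbie called higher at 2.51 (1.19 to 5.35). Over all genes the scaled medians were 1.27 and 1.42, moved by the same factor as those of the members. For genes below 5 reads per kb in WT, where Nfkbie lies, the scaled mdxTLR4-/- median was 2.24, inside the Nfkbie interval. The share of all genes called after scaling is not given here. The ratio also fell with the WT density, which is its own denominator. Over all genes of at least 15 reads per kb in WT, the class of Rel, Rela and Nfkb2, the unscaled median was 0.658 in mdx and 0.633 in mdxTLR4-/- BMDM. From 10 to 15 reads per kb, the class of Nfkbia and Nfkbiz, it was 0.759 and 0.744. From 5 to 10 reads per kb, the class of Nfkb1, Nfkbib and Tnfaip3, it was 0.960 and 0.925, and below 5, the class of Nfkbie, it was 1.32 and 1.38. In mdx BMDM every ratio but that of Nfkbiz (0.787) lay below the median of its class. In mdxTLR4-/- BMDM every ratio did but those of Rel (0.870) and Nfkbie (1.54). The interval left out the median of the class for Tnfaip3 alone, in both comparisons. Scaled reads without division by length gave intervals that held 1 for all 9 genes in mdx and for 8 of 9 in mdxTLR4-/- BMDM. The exception was Nfkbiz at 1.63 (1.03 to 2.56), and the share of all genes with such an interval is not given here.

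The start peak of Nfkbia gave lower ratios than its window did. Its density ratio was 0.393 (0.249 to 0.614) in mdx and 0.378 (0.240 to 0.591) in mdxTLR4-/- BMDM, and 0.561 (0.356 to 0.878) and 0.614 (0.390 to 0.960) after scaling to reads in peaks. The peaks compared were of unlike length, 2.6 kb in WT against 5.0 and 5.2 kb, since the WT list had a gap where the other lists joined start and 3′ end. How much of the ratio comes with this gap was not tested.

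**Figure D3:**
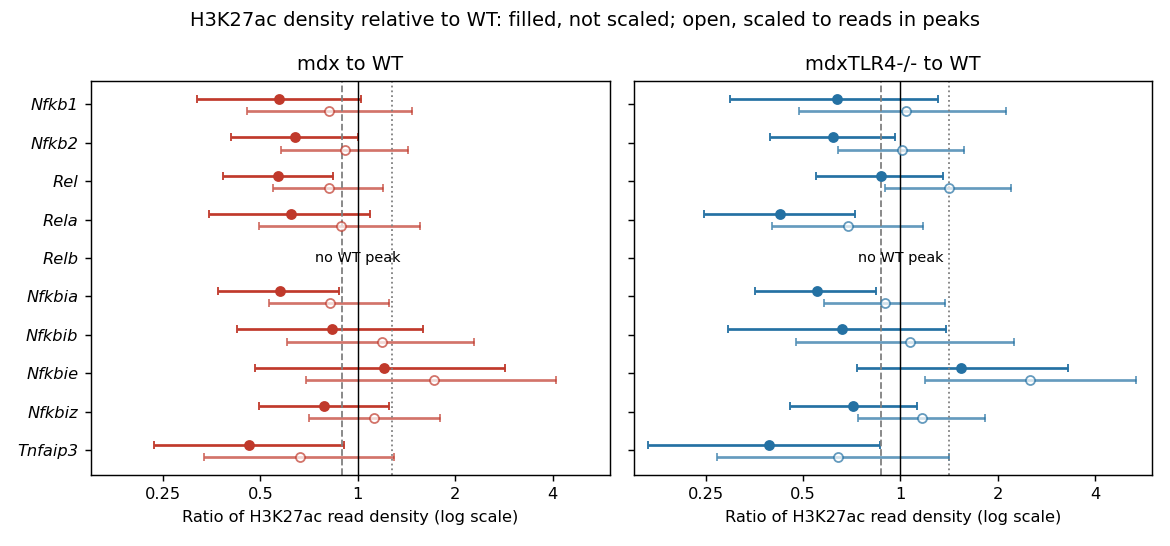
Ratio of H3K27ac reads per kb to WT for each gene, on a log axis, in mdx (left) and mdxTLR4-/- (right) BMDM; filled points are not scaled, open points are scaled to reads in peaks, and bars are exact 95% intervals of the read counts. The dashed and dotted grey lines are the medians over all genes without scaling (0.891 and 0.871) and with it (1.27 and 1.42), and most filled points lie left of the dashed line.

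No H3K27me3 peak lay over the start of any of the 10 genes in the 3 lists, while 23.5%, 23.8% and 22.7% of protein-coding genes had one there in WT, mdx and mdxTLR4-/- BMDM. H3K27me3 peaks touched the windows of 3 of them, Nfkb2, Nfkbib and Nfkbie, in each genotype. The share of protein-coding genes with such a peak in the window was 38.4% in WT and 41.3% in mdx, and 39.0% in mdxTLR4-/- BMDM. Averaged over genes, the share of the window under H3K27me3 was 4.52%, 3.23% and 4.06% for the members and 17.6%, 17.4% and 16.0% for all protein-coding genes. The other 7 genes had no H3K27me3 peak in the window in any list. Nfkbia had the nearest, 8.15 to 9.55 kb from its start, while those of Nfkb1 and Rela were 41.5 to 51.7 kb away those of Rel 73.2 to 275 kb, and those of Relb, Tnfaip3 and Nfkbiz were 92.8 kb or more away.

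The 11 H3K27me3 peaks formed 4 regions, of which 3 lay outside the gene bodies of the family. The other region, at chr19:46311001-46327400, covered the 3′ end of Nfkb2 and the neighbouring gene Psd. It held 984 reads in WT and 1043 in mdx, and 901 in mdxTLR4-/- BMDM, at 60.0, 71.4 and 58.5 reads per kb. The WT peak reached 4 exons of Nfkb2, the mdxTLR4-/- peak 2 and the mdx peak none. The density ratio was 1.19 (1.09 to 1.30) in mdx and 0.975 (0.890 to 1.07) in mdxTLR4-/- BMDM, and 0.973 and 1.10 after scaling to reads in peaks, so the order turned with the scale. Upstream of Nfkb2, a small peak at chr19:46297401-46301200 held 90 reads in WT and 81 in mdx and was not in the mdxTLR4-/- list. Past the 3′ end of Nfkbib a peak over the start of Ccer2 held 98, 115 and 99 reads, at 28.8, 30.3 and 30.9 reads per kb.

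The broadest region lay upstream of Nfkbie, at chr17:45520601-45553800, over the starts of Tcte1 and Tmem151b. The peak that touched the Nfkbie window held 174 reads in WT and 215 in mdx, and 2242 in mdxTLR4-/- BMDM. This difference came from where the lists divided the region, because WT and mdx had a gap of 0.8 kb between a peak of 2057 or 2424 reads and the smaller one, and mdxTLR4-/- had none. Over the whole region the reads were 2231 in WT and 2639 in mdx, and 2242 in mdxTLR4-/- BMDM, at 75.9, 85.7 and 68.8 reads per kb. The density ratio was 1.13 (1.07 to 1.20) in mdx and 0.906 (0.854 to 0.961) in mdxTLR4-/- BMDM, and 0.922 and 1.03 after scaling. The near edge of the region was 3.30 kb from the Nfkbie start in WT and 3.50 kb in mdx, and 1.90 kb in mdxTLR4-/- BMDM.

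**Figure D4:**
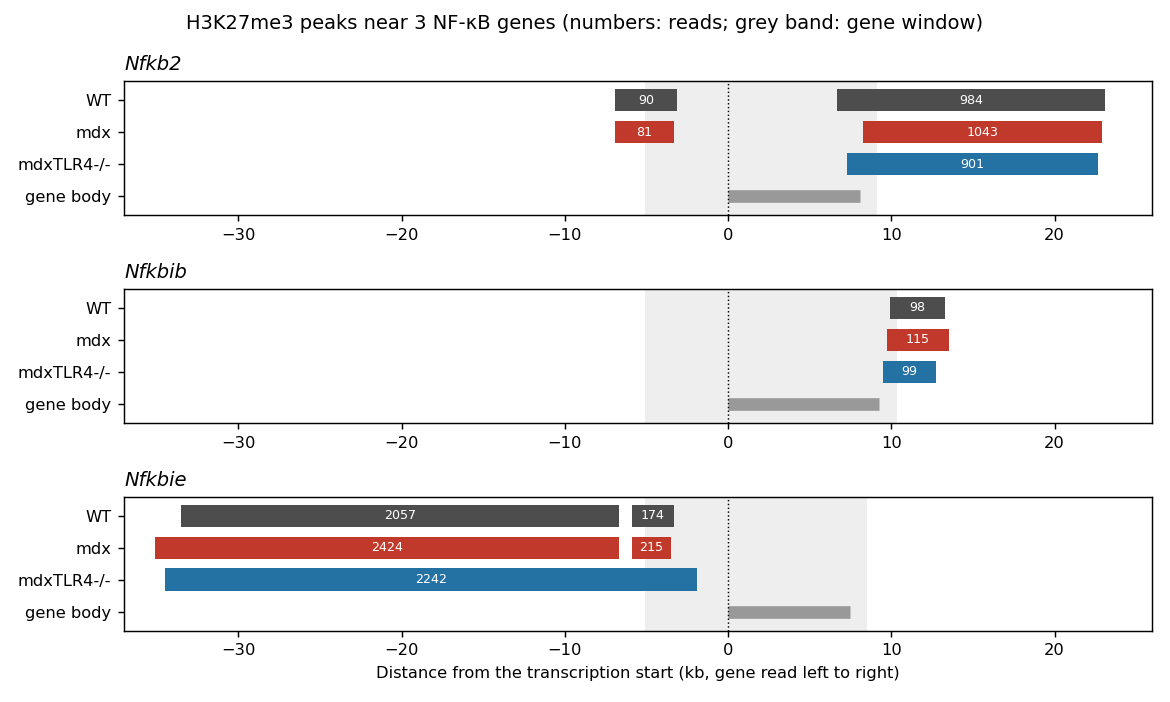
H3K27me3 peaks near Nfkb2, Nfkbib and Nfkbie as distance in kb from each transcription start (dotted line), with each gene read from left to right; bars are peaks of WT (grey), mdx (red) and mdxTLR4-/- (blue) BMDM with their counts of reads, the light grey bar is the gene body and the pale band the gene window. The peaks lie outside the gene bodies except at the 3′ end of Nfkb2 in WT and mdxTLR4-/-, and upstream of Nfkbie the WT and mdx lists divide a region that is 1 peak of 2242 reads in mdxTLR4-/-.

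The genes that act around the family were counted as 3 lists. Of 23 upstream kinases, adaptors and ubiquitin ligases, 10 (43.5%) had H3K27ac over the start in each list, but only 5 were the same in all 3 lists. Over all protein-coding genes the shares were 24.0%, 20.6% and 20.9% in WT, mdx and mdxTLR4-/- BMDM, and 13.7% for all 3 lists at once. Tab1, an adaptor of the kinase TAK1, had 24 reads in mdx and 17 in mdxTLR4-/- and none over the start in WT BMDM. Myd88, the adaptor of most Toll-like receptors, had 17 and 11 reads in mdx and mdxTLR4-/- and none over the start in WT. For both genes the WT list had a peak within 1 kb of the start. Traf3 had 15 reads over the start in mdx alone, with a peak within 1 kb in mdxTLR4-/-, and Traf5 had 14 in WT and 15 in mdxTLR4-/- BMDM. H3K27me3 reached 3, 2 and 2 windows of the 23 genes, beside 38.4%, 41.3% and 39.0% of the windows of all protein-coding genes. Traf1, with 49.4%, 52.5% and 44.8% of its window covered, had H3K27me3 over the start in WT and mdx.

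Of 12 other inhibitors and cofactors, 8 had H3K27ac over the start in WT and 6 in mdx and mdxTLR4-/- BMDM. Over all protein-coding genes the shares were 24.0%, 20.6% and 20.9%. Bcl3, a nuclear partner of p50 and p52, had 17 reads in WT and 10 in mdxTLR4-/- and none over the start in mdx, where a peak lay within 1 kb. Cyld, a deubiquitinase, had 12 and 8 reads in WT and mdxTLR4-/- and none in mdx. The ubiquitin ligase gene Itch had 17 reads in mdx and 11 in mdxTLR4-/- BMDM alone. Commd1 had 9 reads in WT and 7 in mdx. H3K27me3 reached 0, 1 and 1 of the 12 windows, beside 38.4%, 41.3% and 39.0% of the windows of all protein-coding genes.

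Of 24 textbook target genes, 13 had H3K27ac over the start in WT and 11 in mdx, and 7 in mdxTLR4-/- BMDM. These are 54.2%, 45.8% and 29.2% of the list, beside 24.0%, 20.6% and 20.9% of all protein-coding genes. All 7 genes marked in mdxTLR4-/- were marked in WT and mdx too. Among the genes without a peak over the start in mdxTLR4-/- were the chemokine gene Ccl4 with 19 reads in WT and 13 in mdx, Irf1 with 21 and 11, Cd44 with 12 and 15, and Gadd45b with 19 and 18. A peak over the start in WT and mdx and not in mdxTLR4-/- was listed for 3.22% of all protein-coding genes. The mdxTLR4-/- list came from 1 library, and Ccl4 and Cd44 had a peak within 1 kb of the start in it. H3K27me3 reached 7, 7 and 5 of the 24 windows, and 4, 1 and 1 of the starts. Over all protein-coding genes it reached 38.4%, 41.3% and 39.0% of windows and 23.5%, 23.8% and 22.7% of starts. H3K27me3 covered 96.6%, 88.0% and 81.1% of the Cd40 window, and over the start it was listed in WT and mdxTLR4-/-. Il1b had 30.2%, 54.1% and 22.3% of its window covered, over the start in WT alone, and Cxcl1 22.9% in WT and none in the other lists.

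**Figure D5:**
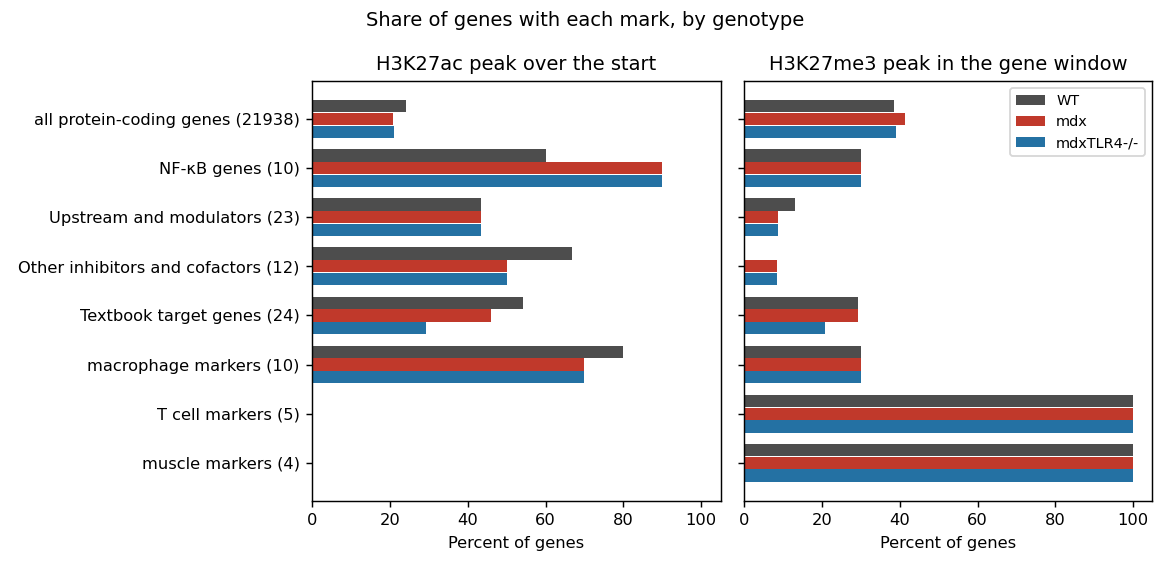
Percent of genes with a H3K27ac peak over the start (left) and with a H3K27me3 peak in the gene window (right) in WT (grey), mdx (red) and mdxTLR4-/- (blue) BMDM, for all protein-coding genes, the 10 NF-kappaB genes, 3 pathway lists and 3 marker lists, with the number of genes in brackets. The NF-kappaB genes have H3K27ac over the start at 60 to 90% against 20.6 to 24.0% of all genes, and the T cell and muscle markers have none.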

How the data were processed

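Per the labels, reads were processed with CASAVA 1.8, cutadapt 1.15, Bowtie2 2.3.4 and SICER 2.0 on mm10. As the methods of the study describe for H3K27me3, the authors merged the replicates and called peaks with 200 bp windows, 600 bp gaps and an FDR below 0.01. The same is taken to hold for H3K27ac. Removal of duplicate reads is not given in the sources used here. The authors deposited a count of ChIP reads for every peak. The total of reads in peaks is not library depth.

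Peaks were assigned to GENCODE vM21 genes by an overlap of at least 1 bp, and reads were divided by the summed length of the peaks. The ratio of 2 densities was given with an exact Clopper-Pearson interval, with no p-value. The 10 genes, the pathway lists and the markers were chosen with earlier results of these data known. All 10 members were named. From each pathway list, up to 4 genes were named whose H3K27ac over the start differed between genotypes, by the largest read count, and up to 5 with H3K27me3 over the start, by the share of window covered in WT. Alternatives were a peak length of 2 kb, a density of 1.5 times the 1st percentile of the list, equal numbers of peaks, other definitions of a peak at the start or in the window, 2 scalings, and all annotated genes. A count of at least 10 reads and any transcript start were added after seeing the data. Overlaps and intervals were tested on simulated data. Scripts ran on Python 3.11.15 with matplotlib 3.10.9 for figures, pandas 2.3.3, scipy 1.17.1 and numpy 2.4.6. Input libraries were not analysed here.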

Additional observations from a re-analysis of the deposited data

How the results depend on the processing

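No paired analysis was possible because replicates were merged into 1 list per genotype, and for the same reason no replicate could be left out. Of 55 alternative values, 41 stayed, 13 moved and 1 reversed, where a count stayed if within 1.5 times, and a share or median ratio if it moved by no more than its counting interval allows. Some counts of H3K27ac over the start stayed only at the limit of this rule. The WT count of 6 became 9 for a peak within 1 kb and 4 for peaks of at least 2 kb. The mdx and mdxTLR4-/- counts of 9 became 6 for peaks of at least 2 kb. The one that reversed was the median H3K27ac density ratio of mdxTLR4-/- to WT, which was 0.637 without scaling and 1.04 when scaled to reads in peaks. The mdx to WT median moved from 0.620 to 0.886 by the same scaling, and with reads in place of reads per kb, peaks over the start alone, a stricter density or the 1st percentile as reference both medians stayed below 1. The median density of the members was 38.3 in WT and 39.5 in mdx, and 40.2 in mdxTLR4-/- BMDM per 1000000 reads in peaks, against 10.5, 7.56 and 6.77 unscaled. The scaled medians were close together and have no interval, so they give no order of the genotypes. The WT median is over 9 genes and the others over 10, as Relb had no WT peak. Members with H3K27me3 in the window were 3 in each list, and 0 in each list when the peak had to lie over the start. Over all annotated genes the share with H3K27ac over the start was 12.3% in WT and 10.4% in mdx, and 10.6% in mdxTLR4-/- BMDM, and that with H3K27me3 in the window 27.9%, 30.7% and 28.3%. The cause was not tested. The H3K27ac peaks held few reads, so a peak that a list lacks may lie under what this depth could detect.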
